A study of Mus musculus with 6 samples.

Results

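The set comprised 8 genes of inflammatory and programmed cell death out of 24965 genes in the deposited table. It was chosen by gene name and not by any measured value, although earlier results of these data were known. The 8 genes were the caspases Casp1, Casp4, Casp8 and Casp9, the inflammasome sensor Nlrp3 and its adaptor Pycard, the pore-forming gasdermin Gsdmd, and the kinase Ripk3. All 8 were found by their Ensembl identifiers and all 8 passed the filter on low values (FPKM above 1 in at least 1 library), as did 13739 genes in total.

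The RNA came from donor hematopoietic stem and progenitor cells (HSPCs) sorted again out of irradiated recipients 6 h post-BMT (bone marrow transplantation), and the question was what loss of Hemgn, a transcriptional regulator of blood cells, changes in cells that have just homed. Donors were WT or whole-body Hemgn-/- mice, made with zinc finger nucleases on a C57BL/6 (CD45.2+) background, and the methods give ages of 8 to 10 weeks for all mice. Recipients of both groups were CD45.1+ mice that had received 9 Gy as a split dose of 4.5 Gy and 4.5 Gy, so both groups had been through transplantation and an irradiated host, and neither shows an untransplanted state. There were 3 libraries of each genotype, described as biological replicates, and whether a library pooled cells of several mice is not stated. The sample labels name the sorted cells as Lin-Sca-1+, while the design text and the methods add c-Kit+.

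An inflammasome is a complex built in the cytosol around a sensor such as NLRP3 and the adaptor ASC, the product of Pycard, which together activate caspase-1. Caspase-1 matures interleukin-1β and interleukin-18 and cuts gasdermin D, whose freed N-terminal part forms pores in the plasma membrane, a lytic death called pyroptosis. Mouse Casp4, formerly Casp11, encodes the caspase that binds bacterial lipopolysaccharide directly and also cuts gasdermin D. Caspase-8 starts apoptosis downstream of death receptors and restrains necroptosis, the lytic death that RIPK3 sets off through MLKL, whereas caspase-9 is activated on the apoptosome after cytochrome c leaves mitochondria. Inflammasome genes are known to be abundant in neutrophils, monocytes and macrophages, and interferons are known inducers of several of them.

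Casp1 and Casp4 are neighbours on chromosome 9 and on the same strand, 1562 bases apart. Casp1 (ENSMUSG00000025888) spans chr9:5298517-5307265 and Casp4 (ENSMUSG00000033538) spans chr9:5308828-5336783 in GRCm38, both on the plus strand. Their promoters are shown because 1 of this adjacent pair passed the test between genotypes and the other did not. Both windows are RefSeq sequences on GRCm38.p6, plus strand, read 5′ to 3′, with the 250 bases before the transcription start in lower case and the first 20 transcribed bases in capitals. Casp1 covers chr9:5298267-5298536, and Casp4 covers chr9:5308599-5308868.
Casp1: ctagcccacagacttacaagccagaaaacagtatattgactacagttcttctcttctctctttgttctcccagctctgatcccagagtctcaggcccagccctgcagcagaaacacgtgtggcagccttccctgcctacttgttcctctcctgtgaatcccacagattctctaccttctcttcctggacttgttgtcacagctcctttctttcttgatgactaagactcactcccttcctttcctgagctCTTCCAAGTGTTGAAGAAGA
Casp4: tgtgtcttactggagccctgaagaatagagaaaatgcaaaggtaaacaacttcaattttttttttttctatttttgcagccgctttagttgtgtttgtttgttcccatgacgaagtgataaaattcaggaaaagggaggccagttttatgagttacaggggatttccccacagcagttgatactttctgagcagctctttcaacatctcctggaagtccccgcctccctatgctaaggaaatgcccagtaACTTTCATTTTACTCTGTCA
Promoters of 7 of the 8 members were matched, in 9 windows that run from 250 bases before to 50 bases after each start, with Casp4 and Nlrp3 having a pair each. Each window was searched on both strands for the gamma-activated site TTCNNNGAA and for the interferon-stimulated response element (ISRE), written as GAAA, 2 bases of any kind and GAAA again. The letters of neither motif were present in any of the 9 windows. Of 32851 mouse promoters of the same length, 8.3% held the first motif and 3.44% the second. At these shares few of the 9 windows would be likely to hold a match. The pair of Casp4 windows overlap, and sites outside the windows or with other letters were not sought.

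Similar sequence between neighbouring genes can blur their read counts. The longest run of bases shared by the Casp1 and Casp4 coding sequences was 12 bases, tggtgaaagagg, at coding positions 629 to 640 of Casp1 and 509 to 520 of Casp4, while reads were 150 bases long. Casp4 shared 0.240% of its 50-base words with the predicted gene Gm42768, and Casp8 shared 4.37% with Gm20257. Pycard shared 11.7% of its words with Gm45205 and Mvp together, and the share of each was not separated. Mvp itself was higher in Hemgn-/- libraries (log2 fold change 0.40, limma adjusted p = 0.0402). Of the merged exons of Pycard, 12.8% lay under the predicted gene Gm45205 on the opposite strand. Strand was not stated to be used in counting, so fragments of Pycard and of Gm45205 cannot be told apart there. Gm45205 itself was below the filter, at 8 to 64 fragments in WT and 9 to 59 in Hemgn-/- libraries. For Casp9 the overlap, with Cela2a and Ctrc on the opposite strand, was 1.81% of its exon bases.

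Hemgn itself was lower in every Hemgn-/- library. Its FPKM, a level per length and per library total, was 5.64, 2.96 and 4.68 in WT replicates 1, 2 and 3, the order used throughout, and 0.755, 0.913 and 1.6 in the 3 Hemgn-/- libraries. The log2 fold change was -1.37 (SE 0.23, limma adjusted p = 0.0114). Recovered totals ran from 23667966 to 28896696 fragments per library, and no library stood apart from its group in depth. Against the expected cell type, the HSPC list summed to only 35.9 to 41.8 FPKM in WT and 43.2 to 51.7 FPKM in Hemgn-/- libraries, with Kit at 5.50 to 7.24 FPKM, and 1 of its 10 genes, Mecom, was below the filter. Neutrophil markers summed to 75841 to 81818 FPKM in WT and 50329 to 55743 FPKM in Hemgn-/- libraries, and to 10.7 to 11.7% against 7.36 to 7.59% of all fragments. Ngp alone took 5.28 to 5.71% of all fragments in WT and 3.24 to 3.42% in Hemgn-/- libraries. Of the 8 neutrophil markers 3 fell (Ltf, Camp and Ngp) and 0 rose at an adjusted p under 0.05 by limma, and the macrophage and monocyte list, a sum carried by Lyz2, came to 23004 to 25681 FPKM in WT and 16525 to 20655 FPKM in Hemgn-/- libraries. The genes of that list did not move together, since 2 rose (Csf1r and Adgre1) and 2 fell (C1qb and Lyz2) by limma. B cell markers summed to 1160 to 1221 FPKM in WT and 1380 to 1554 FPKM in Hemgn-/- libraries, and erythroid markers to 455 to 540 and 31.7 to 50.9 FPKM. The libraries thus carried mature myeloid transcripts in quantity, and their part in the values below was not tested. In RNA from many cells, fewer cells of a type and less RNA per cell cannot be told apart.

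Of the 8 members, Casp4 was the only gene that passed an adjusted p of 0.05 between genotypes in limma on the deposited FPKM, and it was higher in Hemgn-/- libraries. On the deposited scale Nlrp3, Gsdmd, Casp1 and Casp9 were also higher in all 3 Hemgn-/- libraries than in any WT library, without passing that threshold. For Gsdmd, Casp1 and Casp9 this separation was lost with median-ratio scaling. Casp8, Pycard and Ripk3 overlapped between genotypes. The count of 1 in 8 stands beside 6.46% of all 13739 genes called in either direction, and 4.37% called as higher in Hemgn-/- libraries. The count of 5 in 8 without overlap stands beside 19.2% of all genes that were higher in every Hemgn-/- library, and 4 in 8 (Casp1, Casp4, Gsdmd and Nlrp3) reached an unadjusted p under 0.05 in that direction beside 15% of all genes. The median log2 fold change of the members was 0.20, beside 0.087 for all genes tested, with 6 members above 0 and 2 below (Pycard and Ripk3). Of all 13739 genes, 8653 were above 0 and 5086 below. With median-ratio scaling Casp8 also went below 0, and with every library brought to the same FPKM total Ripk3 went above it.

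**Figure D1:**
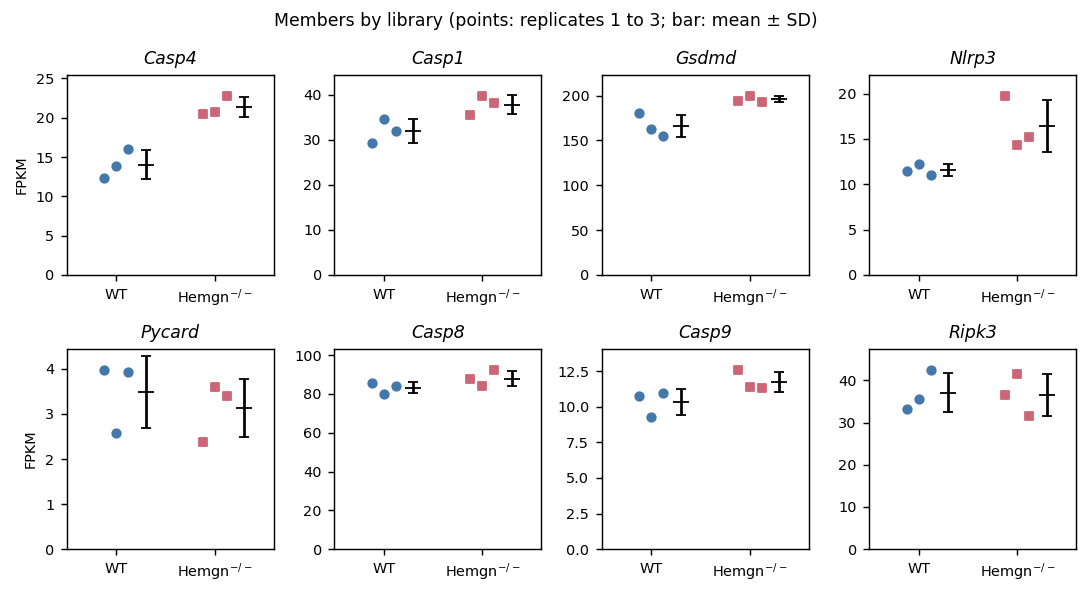
FPKM (y axis, starting at 0) of each of the 8 genes in the 3 WT libraries (circles) and the 3 Hemgn-/- libraries (squares), with the mean ± SD beside each group. Casp4 lies between 12.3 and 16 FPKM in WT and between 20.5 and 22.8 FPKM in Hemgn-/- libraries, while the groups overlap for Pycard, Casp8 and Ripk3.

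Nlrp3 (ENSMUSG00000032691, chr11:59541568-59566956), the sensor, read 11.5, 12.3 and 11.0 FPKM in WT and 19.7, 14.3 and 15.3 FPKM in Hemgn-/- libraries. The groups did not overlap, and Hemgn-/- replicate 1 stood well above the other two. The means were 11.6 ± 0.649 and 16.4 ± 2.91 FPKM (SD, n = 3 each). The log2 fold change on the log2(FPKM + 1) scale was 0.46 (SE 0.13, 95% interval 0.17 to 0.75), and its limma adjusted p of 0.0755 missed the threshold.

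Pycard (ENSMUSG00000030793, chr7:127989708-127993867, minus strand), the adaptor, was the lowest of the 8 in every library. It read 3.97, 2.57 and 3.92 FPKM in WT and 2.39, 3.60 and 3.40 FPKM in Hemgn-/- libraries. These values rest on 249 to 413 fragments per library. Each genotype had 1 library near 2.5 FPKM and a pair above 3, so the groups overlapped. The log2 fold change was -0.12 (SE 0.18, 95% interval -0.54 to 0.30, limma adjusted p = 0.756). The FPKM of Pycard was divided by a merged exon length of 3800 bases. Its longest coding transcript has that full length, although its longest coding sequence has only 579 bases. The level of Pycard beside other genes thus depends on how much of that length the cells transcribe. For Casp4 the longest coding transcript itself covers only 1435 of 3710 merged exon bases, the smallest share (38.7%) of the 8 members. The place of Casp4 in the order of levels therefore also depends on the length used.

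Casp1, the caspase activated by the NLRP3 complex, read 29.2, 34.6 and 32.0 FPKM in WT and 35.5, 39.7 and 38.1 FPKM in Hemgn-/- libraries. The highest WT value lay just under the lowest Hemgn-/- value. The log2 fold change was 0.24 (SE 0.090, 95% interval 0.033 to 0.44, limma adjusted p = 0.174).

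Casp4, the lipopolysaccharide-binding caspase, read 12.3, 13.8 and 16 FPKM in WT and 20.5, 20.8 and 22.8 FPKM in Hemgn-/- libraries. The gap between the groups, from 16 to 20.5 FPKM, was wider than the range within either group. The means were 14.0 ± 1.86 and 21.3 ± 1.25 FPKM (SD, n = 3 each), on 1079 to 1645 and 2018 to 2441 fragments. Casp4 rose by 0.58 on the log2 scale (SE 0.11, 95% interval 0.33 to 0.83, limma adjusted p = 0.019). That is 1.49-fold with the pseudocount and 1.52-fold as a ratio of mean FPKM, so the gene sits at the edge of the 1.5-fold limit of the study's methods. On the log2(FPKM + 1) scale 0 of the 8 members passed that limit together with an unadjusted p under 0.05 in limma, where 6.83% of all genes did. Casp4 lay above 1.5-fold with a pseudocount of 0.1 and with voom on recovered fragments (log2 fold change 0.61 in each), with the same FPKM total (0.69), and without WT replicate 3 (0.67), Hemgn-/- replicate 1 (0.61) or Hemgn-/- replicate 2 (0.60). The call was lost without WT replicate 1 (adjusted p = 0.0625), without Hemgn-/- replicate 2 (0.056) and without Hemgn-/- replicate 3 (0.0879), with log2 fold changes from 0.49 to 0.67 over all 6 omissions. It was also lost without the low-value filter (0.0538) and without a variance trend (0.068), and it held in 11 of 16 alternatives.

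Gsdmd (ENSMUSG00000022575, chr15:75862327-75867408), the pore former cut by both inflammatory caspases, was the most abundant of the 8 per length. It read 180, 163 and 155 FPKM in WT and 195, 200 and 193 FPKM in Hemgn-/- libraries. The 3 Hemgn-/- libraries lay within a narrow band above the WT libraries, which were more spread. Its log2 fold change was 0.24 (SE 0.071, 95% interval 0.077 to 0.40, limma adjusted p = 0.0911). The neutrophil list summed lower in the same Hemgn-/- libraries in which Gsdmd read higher. That sum was carried mostly by Ngp, and only Ltf, Camp and Ngp of its genes fell by limma. Of the remaining genes of the list, S100a8 and S100a9 had log2 fold changes of -0.33 and -0.19, without passing the threshold. Mmp8, Mmp9 and Retnlg had log2 fold changes of 0.0065, 0.076 and 0.10. The part of neutrophils in the level of Gsdmd was not tested.

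Casp8 (ENSMUSG00000026029, chr1:58795374-58847503), the initiator of the death receptor arm, read 85.6, 79.9 and 84.2 FPKM in WT and 87.6, 84.1 and 92.2 FPKM in Hemgn-/- libraries. The groups overlapped, and their means were 83.2 ± 2.94 and 87.9 ± 4.07 FPKM (SD, n = 3 each). Its log2 fold change of 0.078 had the smallest standard error of the 8 members (SE 0.069, 95% interval -0.080 to 0.24, limma adjusted p = 0.562).

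Casp9 (ENSMUSG00000028914, chr4:141793612-141815976), the initiator of the mitochondrial arm, read 10.8, 9.27 and 11.0 FPKM in WT and 12.6, 11.4 and 11.3 FPKM in Hemgn-/- libraries. The groups were apart by a small margin, from 11.0 to 11.3 FPKM. Casp9 differed by a log2 fold change of 0.17 (SE 0.10, 95% interval -0.067 to 0.41, limma adjusted p = 0.395).

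Ripk3 (ENSMUSG00000022221, chr14:55784995-55788865, minus strand), the necroptosis kinase, read 33.3, 35.7 and 42.4 FPKM in WT and 36.4, 41.5 and 31.5 FPKM in Hemgn-/- libraries. Both genotypes spanned nearly the same range. On the log2 scale the difference was -0.026 (SE 0.12, 95% interval -0.31 to 0.26, limma adjusted p = 0.93). Folds from 0.807 to 1.19 lie within that interval.

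The size of each member's difference depended on how the libraries were scaled. Together the marker lists took 14.6 to 15.7% of fragments in WT and 10.2 to 10.9% in Hemgn-/- libraries, which enters every FPKM through the library total. The median of all genes was 0.087 on the deposited scale, 0.0076 with median-ratio scaling, 0.012 with quantile normalization, 0.031 with totals that leave out the marker genes, and 0.18 with every library at the same FPKM total. The setting without marker genes was chosen after seeing the data. Casp4 kept its call under all 4 of these scalings, with log2 fold changes of 0.48, 0.50, 0.51 and 0.69 in that order. With the same FPKM total, Gsdmd (0.33, limma adjusted p = 0.0283) and Nlrp3 (0.56, adjusted p = 0.0406) passed as well. Relative to the median of all genes at that setting, Gsdmd stood 0.15 and Nlrp3 0.38 higher. Median-ratio scaling brought Casp1 to 0.14, Gsdmd to 0.14 and Casp9 to 0.077. Its factors ran from 0.962 to 0.972 in WT and from 1.03 to 1.05 in Hemgn-/- libraries. Divided by them, the values of these genes overlapped between genotypes.

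**Figure D2:**
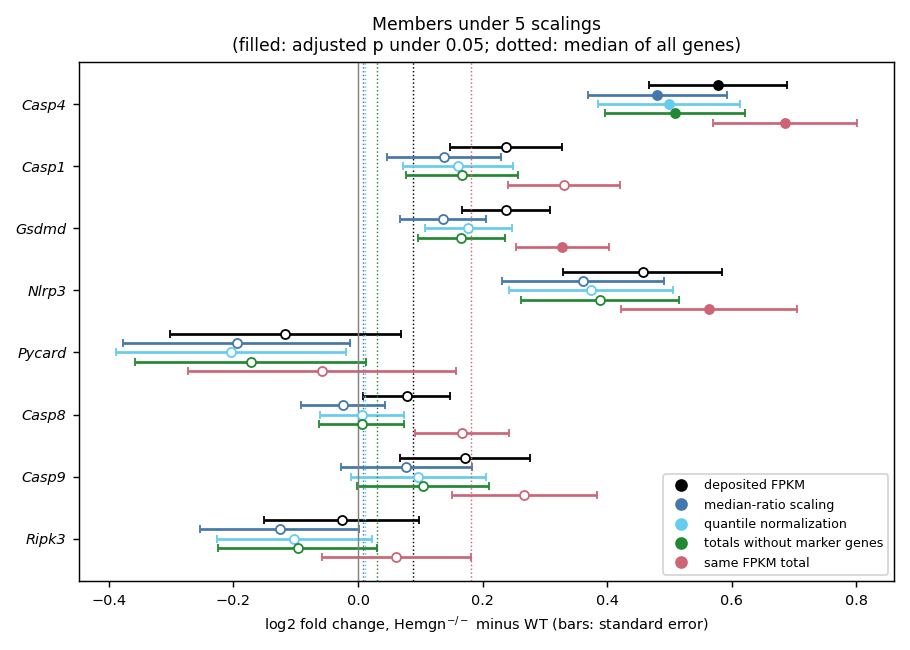
Log2 fold change, Hemgn-/- minus WT (x axis, bars show the standard error), of the 8 genes under 5 scalings, filled where the limma adjusted p was under 0.05, with dotted lines at the median of all genes for each scaling. Casp4 is filled in all 5, from 0.48 to 0.69, and Gsdmd and Nlrp3 only with the same FPKM total, while Casp8 changes side with median-ratio scaling and Ripk3 with the same FPKM total.

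The order of levels per length was alike in both genotypes. In WT libraries Gsdmd came first at 166 FPKM on average, then Casp8 (83.2), Ripk3 (37.1), Casp1 (31.9), Casp4 (14.0), Nlrp3 (11.6), Casp9 (10.3) and Pycard (3.49). Ripk3 and Casp1 overlapped in range there, as did Casp4 and Nlrp3, and all other neighbours in the order were apart. In Hemgn-/- libraries Casp1 (37.8) and Ripk3 (36.5) overlapped again, in swapped order, whereas Casp4 (21.3) and Nlrp3 (16.4) were apart. The initiator of the death receptor arm was therefore above that of the mitochondrial arm in each library, and the pyroptotic pore former above the sensor and adaptor upstream of it.

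Ratios of members within a library do not depend on the scaling between libraries, although their size depends on the exon lengths used. The log2 ratio of Casp4 to Casp1 was -1.25, -1.32 and -0.999 in WT and -0.79, -0.93 and -0.74 in Hemgn-/- libraries. All 3 Hemgn-/- ratios were above all 3 WT ratios, a difference of 0.37 on the log2 scale. Its p of 0.1 by a two-sided exact permutation test is the smallest that 3 against 3 libraries can give, and it was 0.4 after adjustment over the 4 ratios compared. The log2 ratio of Casp8 to Casp9 was 3.01 ± 0.0857 in WT and 2.91 ± 0.114 in Hemgn-/- libraries (SD, n = 3 each, exact permutation p = 0.3). The log2 ratios of Casp1 to Casp9 and of Ripk3 to Casp8 overlapped between genotypes, with differences of 0.058 (exact permutation p = 0.9) and -0.11 (exact permutation p = 0.6).

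**Figure D3:**
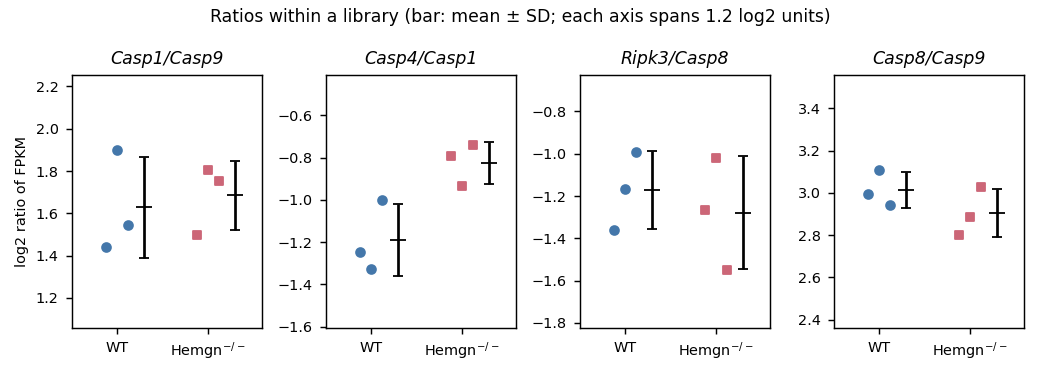
Log2 ratios of FPKM between pairs of members within each library (y axis, each panel spans the same number of log2 units but not the same values), with the 3 WT libraries as circles, the 3 Hemgn-/- libraries as squares and the mean ± SD beside them. The groups are apart for Casp4 to Casp1, at -1.32 to -0.999 against -0.93 to -0.74, and overlap for the other 3 ratios.

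Around the members, 53 other genes of the same pathways were listed and 45 were tested. Of these 6 rose in Hemgn-/- libraries and 0 fell at an adjusted p under 0.05 in limma, and 15 were higher and 1 lower at an unadjusted p under 0.05. Over all 13739 genes 4.37% were called higher and 15% were higher at an unadjusted p under 0.05, and the shorter lists that follow stand beside the same shares. In all, 32 had a log2 fold change above 0 and 13 below, beside 8653 above and 5086 below among all 13739 genes. The median was 0.13, beside 0.087 for all genes. Those 6 were Nod2, Il1b, Zbp1, Birc3, Fas and Il1rn. Without a variance trend 1 of the 45 was called, and leaving out 1 library at a time left between 2 and 5, with 2 left without Hemgn-/- replicate 3 and 3 without WT replicate 1. Casp12, Nlrp1b, Nlrp6, Naip1, Gsdma and Tnfrsf10b were below the filter, and Casp14 and Gsdmc were not analysed here.

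Among 13 tested sensors and helpers 1 rose and 0 fell. That gene was Nod2, a cytosolic receptor for bacterial muramyl dipeptide, at 2.56, 2.93 and 1.92 FPKM in WT and 6.25, 4.97 and 4.56 FPKM in Hemgn-/- libraries (log2 fold change 0.85, SE 0.16, limma adjusted p = 0.0189). Its groups did not overlap, but the call was lost in 4 of the 6 omissions of a library. Aim2, the sensor of cytosolic DNA, did not overlap between genotypes either (4.74 to 6.54 against 7.24 to 8.82 FPKM) and missed the threshold (0.48, limma adjusted p = 0.0909). Nlrc4, which responds to flagellin through the NAIP proteins, and Nek7, the kinase that binds NLRP3, overlapped between genotypes, with log2 fold changes of -0.029 and 0.065.

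Among 8 tested interleukin-1 family products, gasdermins and rupture genes 2 rose and 0 fell. Il1b, the precursor that caspase-1 matures, read 190, 197 and 167 FPKM in WT and 249, 324 and 274 FPKM in Hemgn-/- libraries (log2 fold change 0.61, SE 0.11, limma adjusted p = 0.0125). Il1rn, the secreted antagonist of the same receptor, read 64.5, 69.2 and 67.4 FPKM in WT and 88.6, 87.5 and 87.9 FPKM in Hemgn-/- libraries (0.39, SE 0.065, limma adjusted p = 0.0107). The cytokine and its antagonist were thus both higher in every Hemgn-/- library. Each held its call in 13 of 16 alternatives, Il1b in 5 and Il1rn in 4 of the 6 omissions of a library. Il18, the other caspase-1 substrate of the family, overlapped between genotypes at 2.55 to 4.26 and 3.26 to 5.08 FPKM (log2 fold change 0.10, limma adjusted p = 0.804).

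In the list of the apoptosome and mitochondrial arm, which also holds inhibitors of apoptosis, 8 genes were tested, and 1 rose and 0 fell. Birc3, an inhibitor of apoptosis that ubiquitinates RIPK1 and is a target of NF-κB, read 54.3 to 57.8 FPKM in WT and 74.2 to 80.7 FPKM in Hemgn-/- libraries (0.46, SE 0.070, limma adjusted p = 0.00681), and held its call in 15 of 16 alternatives. Apaf1, the scaffold on which caspase-9 is activated, overlapped between genotypes at 9.22 to 10.8 and 9.25 to 10.2 FPKM (-0.028, limma adjusted p = 0.909). Of 4 tested other caspases 0 passed the threshold in limma, and 1 had an unadjusted p under 0.05.

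In the death receptor arm 6 genes were tested, all with log2 fold changes above 0 on the deposited scale, and 1 rose. On that scale 8653 of all 13739 genes were above 0, and the 6 were not all above 0 in every alternative. Fas, the death receptor upstream of caspase-8, read 16.1 to 17.0 FPKM in WT and 21.2 to 23.7 FPKM in Hemgn-/- libraries (0.42, SE 0.085, limma adjusted p = 0.0235). Its groups were far apart, yet the call held in only 4 of 16 alternatives and in none of the 6 omissions of a library, with an adjusted p of at most 0.0811. Fadd, the adaptor between Fas and caspase-8, and Cflar, the caspase-8 inhibitor cFLIP, also did not overlap between genotypes, with log2 fold changes of 0.33 (limma adjusted p = 0.226) and 0.24 (limma adjusted p = 0.181).

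In the necroptosis arm 1 of 6 tested genes rose and 0 fell. Zbp1, a sensor of Z-form nucleic acid that engages RIPK3, read 24.2 to 26.0 FPKM in WT and 33.7 to 41.2 FPKM in Hemgn-/- libraries (0.55, SE 0.093, limma adjusted p = 0.0112), and held its call in 14 of 16 alternatives. Mlkl, the executor that RIPK3 phosphorylates, read 8.35 to 12.6 FPKM in WT and 12.04 to 12.5 FPKM in Hemgn-/- libraries (0.18, limma adjusted p = 0.528). Ripk1, the upstream kinase, was at 1.63 to 3.41 and 1.67 to 2.91 FPKM (-0.056, limma adjusted p = 0.924). The sensor upstream of RIPK3 thus read higher in Hemgn-/- libraries, while the values of Ripk3, its partner Ripk1 and its substrate Mlkl overlapped between genotypes.

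**Figure D4:**
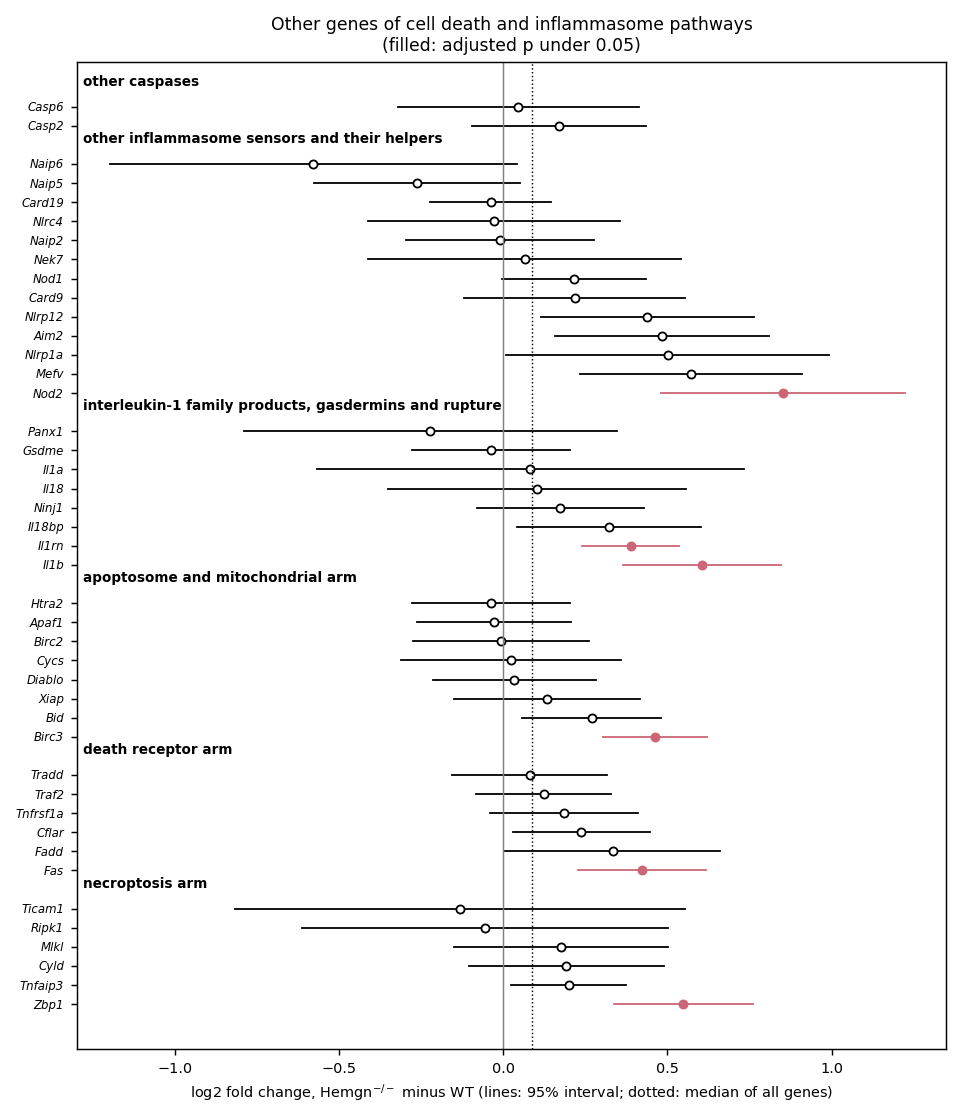
Log2 fold change, Hemgn-/- minus WT (x axis), of 43 of the 45 other pathway genes tested, grouped by list, with lines for the 95% interval and a dotted line at the median of all genes. The 6 filled points, Nod2, Il1b, Il1rn, Birc3, Fas and Zbp1, lie between 0.39 and 0.85 and passed an adjusted p of 0.05, and no gene shown passed on the lower side.

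The genes whose values over the 6 libraries ran most closely with a member were sought among 6289 genes with a mean FPKM of at least 5. For Casp4 these were Tor3a (Pearson r = 0.998) and Crip1 (0.994). For Nlrp3 they were Vcp-rs (0.995) and Mief1 (0.987), for Gsdmd they were Ddx54 (0.997) and Mboat7 (0.995), and for Casp1 they were Cct7 (0.993) and Ptpn2 (0.984). For Casp8 they were Fam118a (0.989) and Lnpep (0.988), and for Casp9 they were Helz (0.999) and Cd2 (0.993). For Pycard they were Atp6v0e (0.978) and Tspo (0.970), from 6290 genes, and for Ripk3 they were Mrpl36 (0.964) and Nudt1 (0.962). The 6 points share the split by genotype and each library's total, and these values are a description without a test. Vcp-rs is a copy of Vcp that may share its reads, so its values are uncertain. Among the members themselves r ran from -0.65 (Nlrp3 and Pycard) to 0.85 (Casp1 and Casp4).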

How the data were processed

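Cells given as Lin-Sca-1+c-Kit+ in the methods and as Lin-Sca-1+ in the labels were sorted from recipient bone marrow 6 h post-BMT, 3 libraries per genotype. The cDNA was made with Smart-Seq2 per the study's methods, although the labels name another kit. The authors deposited FPKM values per gene. The submitters' processing notes name Bowtie2 2.2.3, HISAT2 2.1.0, TopHat2, HTSeq 0.6.0 and GRCm38, without roles. The notes do not say whether strand was used. Libraries were grouped by the labelled genotype, and the table's columns were matched by genotype and replicate number. No per-sample column was left unmapped (0 columns).

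Of 24965 genes, 24921 matched GENCODE M21 by Ensembl identifier and 44 did not. Library totals were worked out from the size of the steps among low FPKM values. With exon lengths, 95.7% of 13486 low genes gave whole fragments within 0.05 in all 6 libraries. Amplified fragments are not independent molecules. A chi-square of fragments between replicates, run only to look for a library deposited more than once, was 17.5 to 35.2 per gene, and none was counted as a copy.

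Genes above 1 FPKM in at least 1 library were compared as log2(FPKM + 1) with limma 3.58.1 in R 4.3.3 (eBayes with a trend, two-sided, Benjamini-Hochberg adjustment over 13739 genes), without covariates, after the procedure was tested on simulated data. This scale understates changes of low genes. Ratios were compared with exact permutation tests (scipy 1.17.1). Alternatives were other pseudocounts (0.1), filters, scalings, no variance trend, voom on recovered fragments, a replicate block and each library left out. Same-numbered libraries did not deviate together (r of -0.043, -0.0094 and 0.011), so numbers were not taken as pairs.

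The members, the pathway and marker lists and the tests were chosen with earlier results of these data known. The text names the 8 members, Hemgn, every listed pathway gene with an adjusted p under 0.05, 12 direct partners whatever their result (some are not reported here), and the 2 genes most like each member. Genes that share exons or sequence with a member, marker genes, and genes that could not be tested are named besides.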

Additional observations from a re-analysis of the deposited data

How the results depend on the processing

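With 3 libraries per genotype, the 95% interval of the fold reached from 0.946 to 1.18 for Casp8, the most precise member, and from 0.689 to 1.24 for Pycard, the shallowest at 249 to 413 fragments. The count of genes past an adjusted p of 0.05 (887, of which 600 higher and 287 lower) was 466 with no filter on low values, 390 without a variance trend and 373 to 688 with a library left out. Higher and lower calls split 342 to 387 with median-ratio scaling, 368 to 346 with quantile normalization, 1049 to 238 with the same FPKM total and 397 to 351 with totals without the marker genes, an alternative chosen after seeing the data. The count past p 0.05 and 1.5-fold (939) was 1437 with the same FPKM total, 1412 with voom and 942 to 1052 with a library left out. Members called (1) were 0 without the filter, 0 without a trend, 3 with the same FPKM total and 0 to 1 with a library left out. Other pathway genes called (6) were 9 with the same FPKM total, 1 without a trend and 2 to 5 with a library left out. The median of all genes moved to 0.18 with the same FPKM total. The cause was not tested in these cases.

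Casp4 stayed at 0.58 with no filter (limma adjusted p = 0.0538) and without a trend (0.068) and missed the threshold in both, with 0.49 to 0.67 over omitted libraries. Hemgn stayed at -1.37 and missed it with no filter (limma adjusted p = 0.0613) and, at -1.32, without WT replicate 3 (0.0503), with -1.58 to -1.20 over omitted libraries. Gsdmd (0.33) and Nlrp3 (0.56) passed with the same FPKM total. Signs turned for Casp8 with median-ratio scaling (-0.024), and with the same FPKM total for Ripk3 (0.061), Nlrc4 (0.047), Apaf1 (0.056) and Ripk1 (0.010), and for Nek7 with quantile normalization (-0.011). Over omitted libraries the sign turned for Ripk3 (-0.12 to 0.073), Pycard (-0.27 to 0.019), Nlrc4 (-0.14 to 0.092), Nek7 (-0.051 to 0.22), Apaf1 (-0.085 to 0.018), Il18 (-0.074 to 0.21), Ripk1 (-0.23 to 0.18), and the log2 ratios Casp1 to Casp9 (-0.036 to 0.19) and Ripk3 to Casp8 (-0.24 to 0.031). None of these genes passed the limma threshold on the deposited scale.

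With the replicate number as a block, 636 genes passed (410 higher and 226 lower), 1 member (Casp4, limma adjusted p = 0.0233) and 5 other pathway genes. Fas was lost (0.0599). The numbers did not pair the libraries.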
